A study of Mus musculus with 12 samples.

Results

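Mouse embryonic stem (ES) cells that had spent 10 days in the serum-free arm of a 2i experiment were compared with serum-free cells of the same lines at day 0. These groups are 4 of the 12 arrays of the series, which were chosen by their labels for arm and day and hold 1 array for each of the reporter lines Stella-GFP and Dazl-GFP at each day. The remaining 8 arrays are serum-free cells at day 3 and cells kept with 15% fetal bovine serum (FBS) at days 0, 3 and 10. All media contained the cytokine leukemia inhibitory factor (LIF), and the cells lay on irradiated feeder cells, which were mouse embryonic fibroblasts. The serum-free arm used B27N2 medium, and the labels give 1 µM of the MEK inhibitor PD0325901 and 5 µM of the GSK3β inhibitor Kenpaullone for the 2i experiments. The source label of the serum-free arm reads 2i at every day, so what its cells had received at day 0 is not stated, nor is it stated whether the FBS cells received the inhibitors. Each line carries a green fluorescent reporter named after a germ cell gene, Dppa3 (Stella) or Dazl. Neither the strain nor the number of cultures behind an array is given. The 2 arrays of a group are 2 cell lines, and the fit takes out the mean difference between these lines. The p-values thus measure how unevenly the lines differ across all 6 groups of the series, a spread which may be in part technical. No step that removed the feeders before RNA extraction is named.

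ES cells can be kept in a naive state, close to that of the early epiblast, when differentiation signals are blocked. MEK inhibitors stop the activation of ERK, the kinase that carries fibroblast growth factor signals towards differentiation, and cells with active ERK make their own inhibitors of the pathway, so the RNA of these feedback inhibitors is widely used as a readout of its activity. GSK3 inhibitors stabilise β-catenin, the effector of canonical Wnt signalling, and LIF acts through STAT3. ES cultures can also hold a minor population with genes of the primitive endoderm, the lineage that forms next to the epiblast, and express a number of germ cell genes at low levels.

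The arrays carried the usual identity of ES cells: all 7 ES markers tested (Pou5f1, Sox2, Nanog, Zfp42, Sall4, Utf1 and Tdgf1) lay well above background on each of the 4 arrays. Their summed level, in multiples of the array's 75th percentile, was 229 at day 0 and 231 at day 10 in Stella-GFP and 152 at both days in Dazl-GFP. Most of this sum is Zfp42, whose log2 level was 7.32 and 7.29 in Stella-GFP and 6.35 and 6.48 in Dazl-GFP. It therefore says little about the dimmer markers. The 18 fibroblast markers tested summed to 53.1 and 47.8 at day 0 and to 56.4 and 43.2 at day 10 in Stella-GFP and Dazl-GFP, and all 18 were well above background at day 0 and 17 at day 10 on each array. The 12 macrophage markers tested summed to 3.92 and 3.49 at day 0 and to 2.47 and 3.35 at day 10. The Stella-GFP arrays of both days shared slide 3, whereas Dazl-GFP was on slide 2 at day 0 and on slide 3 at day 10. Between 67.8% and 68.8% of the spots of each of the 4 arrays were well above background.

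Of 20790 genes tested, 1114 (5.36%) differed between day 10 and day 0 by limma at a Benjamini-Hochberg adjusted p under 0.05, 456 higher (2.19%) and 658 lower (3.16%) at day 10. The higher calls made up 40.9% of the 1114, 32.2% after quantile normalization and 24.2% without the Stella-GFP day 10 array. The change was at least 2-fold for 891 of them, and the direction was shared by both lines for all 1114. A gene passes by the mean of its 2 line changes against the spread between lines. A shared direction was thus largely set by the choice of genes and adds no support. The median difference of all genes tested was 0.12 on the log2 scale, on which 1 unit is a 2-fold change. Among the 1114 genes the change was larger in Dazl-GFP for 775, with a median size of 1.47 against 1.26 in Stella-GFP, and 724 moved at least 2-fold in each line. Across all genes tested the changes of the 2 lines correlated at r = 0.572, a description over genes, which are not independent replicates.

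These counts rest on few arrays. Without the Dazl-GFP day 0 array 0 genes passed in limma (2458 had an unadjusted p under 0.05), and without the Dazl-GFP day 10 array 52 did. The count was 191 without the Stella-GFP day 0 array, 252 without the Stella-GFP day 10 array, 722 without a serum-free day 3 array and 716 without an FBS day 3 array. With the slide as a block it was 40 (3876 unadjusted), and without the line as a block it was 584. Of 87 genes named below that passed (3 Oas genes named outside the lists not counted), 13 still passed with the slide as a block. Without the line block 59 did. All 87 kept their direction with the slide as a block. Dropping the line block leaves the fitted change of a gene measured on all arrays as it was, so it could not reverse a direction. Within slide 3, which holds both days of Stella-GFP, the change of that line is free of a slide difference but has no replicate, and it is given below through the values of that line.

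**Figure D1:**
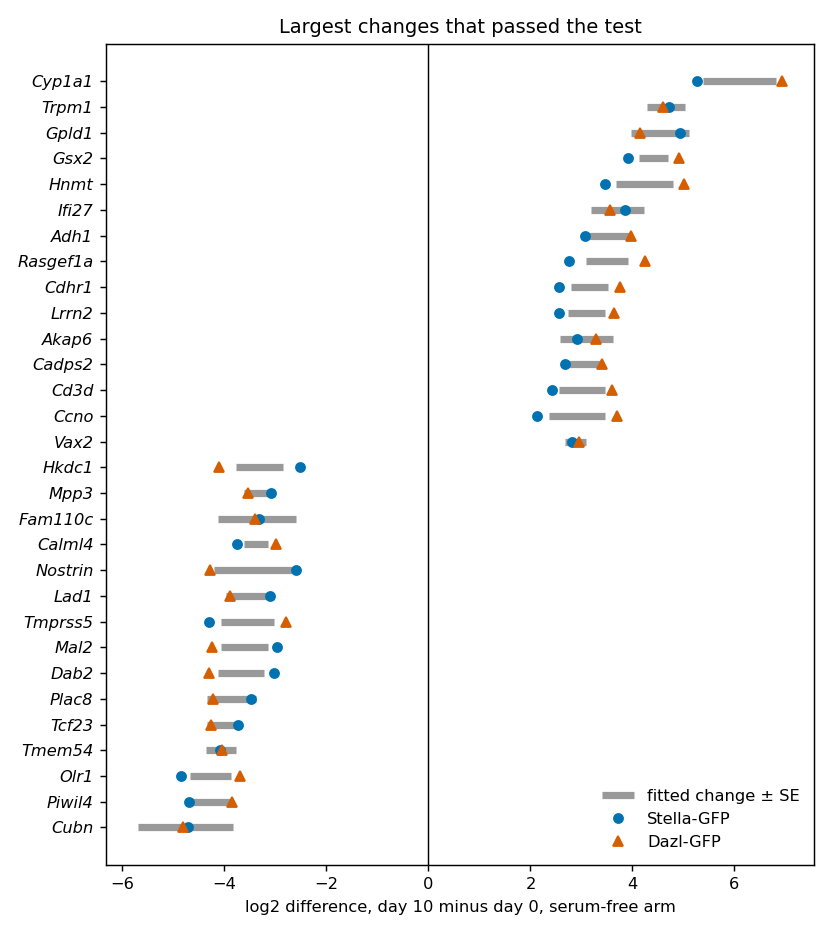
Difference between day 10 and day 0 in the serum-free arm (log2, horizontal axis) for the 15 highest and 15 lowest changes that passed the test, with the fitted change ± SE as a bar and the change in each line as a point (Stella-GFP circles, Dazl-GFP triangles). Both lines lie on the same side of 0 for every gene, as the rule of choice required, from Cubn at -4.76 to Cyp1a1 at 6.10.

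Part of the ERK feedback inhibitors and of the Etv transcription factors downstream of ERK were lower at day 10. Of 13 tested, 5 fell, 0 rose and 8 did not pass (3.16% of all genes tested fell). The median was -1.07 against 0.12 over all genes tested. Values below are log2 levels relative to the array's 75th percentile, so that a level of 0 is a signal at that percentile. Etv4, an ETS factor induced by ERK, stood at 1.63 in Stella-GFP and 2.50 in Dazl-GFP at day 0 and at -1.34 and -1.09 at day 10. The fall was 3.28 on the log2 scale (SE 0.26, limma adjusted p = 0.00479), a 9.72-fold difference. That the days did not overlap adds no support, as the gene was named because it passed on these arrays. Spry4, a Sprouty inhibitor of receptor tyrosine kinase signalling, stood at -0.80 and -0.14 at day 0 and at -3.72 and -3.54 at day 10. It fell by 3.16 (SE 0.29, limma adjusted p = 0.00513), and a second probe gave -1.40 without passing (adjusted p = 0.110).

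Dusp6, the phosphatase that removes the activating phosphates of ERK, was at 4.33 and 4.65 at day 0 and at 2.71 and 2.98 at day 10, a fall of 1.64 (SE 0.37, limma adjusted p = 0.0492). It lay close to the threshold and did not pass without the line block. Phlda1, a growth factor induced gene, fell by 1.64 (SE 0.36, adjusted p = 0.0450), and Spred1, an inhibitor of Raf activation, by 1.27 (SE 0.19, adjusted p = 0.0159). Some members that did not pass were lower too. Dusp4 differed by -1.07 (SE 0.33, limma adjusted p = 0.106), with another probe at -1.69 (adjusted p = 0.0389 over all probes). Etv1 differed by -1.15 (SE 0.39, adjusted p = 0.124). Of the 13 members, 8 were lower and 2 higher in both lines, a share not counted over all genes. Spry2 and Etv5 did not move in this way. Spry2, a further Sprouty inhibitor, was at 2.79 and 2.00 at day 0 and at 2.38 and 2.35 at day 10, a difference of -0.03 (SE 0.27, adjusted p = 0.951). Etv5, the close relative of Etv4, differed by 0.77 (SE 0.25, adjusted p = 0.114). A p that misses the threshold does not show that the levels were equal.

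Of 12 immediate early genes, 1 rose and 1 fell. Jun, an AP-1 subunit, rose by 1.20 (SE 0.25, adjusted p = 0.0411), and Fosl1, the AP-1 partner kept up by sustained ERK activity, fell by 1.19 (SE 0.25, adjusted p = 0.0392). The list's median was 0.04, and 5.36% of all genes tested passed.

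Targets of Wnt and β-catenin, the arm of signalling that a GSK3 inhibitor switches on, gave 1 rise and 0 falls among 13 tested, with a median of -0.20. Over all genes tested 5.36% passed. Notum, which encodes a secreted enzyme that inactivates Wnt proteins, was at -0.32 and -0.00 at day 0 and at 1.23 and 1.77 at day 10. It rose by 1.67 (SE 0.33, limma adjusted p = 0.0350). Axin2, the standard target in this pathway, differed by -0.03 (SE 0.25, adjusted p = 0.954). Dkk1, a secreted Wnt antagonist, was at -1.48 and -0.20 at day 0 and at -3.19 and -3.67 at day 10, a difference of -2.59 (SE 0.61) that did not pass (adjusted p = 0.0558).

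Among core and naive pluripotency genes, the differences ran from -2.04 to 1.08 and none passed. In limma 0 of 10 core and 0 of 12 naive pluripotency genes passed (3 and 5 at an unadjusted p under 0.05, as 5430 of all genes tested), with medians of -0.19 and 0.25. Pou5f1, the core factor Oct4, was at 4.76 and 5.00 at day 0 and at 5.06 and 4.38 at day 10, so the days overlapped (-0.16, SE 0.40, adjusted p = 0.828). Nanog, which stabilises naive pluripotency, was at 2.53 and 2.66 at day 0 and at 2.93 and 3.35 at day 10, higher in both lines without passing (0.55, SE 0.18, adjusted p = 0.124). The naive factor gene Gbx2 had the lowest value of the list: it was at 0.65 and 1.95 at day 0 and at -1.17 and -0.31 at day 10, lower on both day 10 arrays (-2.04, SE 0.50, adjusted p = 0.0633), while another probe gave 0.18. Tbx3, also a naive factor gene, differed by 1.07 (SE 0.42, adjusted p = 0.160), and its other probe by 2.13 (adjusted p = 0.0296 over all probes). Klf2 differed by 1.08 (SE 0.30, adjusted p = 0.0872), Klf4 by 0.62 (SE 0.28) and Esrrb by 0.29 (SE 0.27). Dppa3, the maternal factor Stella, was at 4.11 and 2.52 at day 0 and at 3.91 and 3.54 at day 10, overlapping (0.41, SE 0.55, adjusted p = 0.668). Among 12 genes of primed and formative pluripotency, Cldn6, a tight junction gene of the epiblast, alone passed, with a fall of 2.34 (SE 0.40, adjusted p = 0.0212).

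The series title names Dazl and the TET enzymes. Dazl, an RNA-binding protein gene of germ cells, was at -2.68 in Stella-GFP and -1.01 in Dazl-GFP at day 0 and at -2.29 and 0.90 at day 10. The difference was 0.39 in Stella-GFP and 1.91 in Dazl-GFP, and the mean of 1.15 (SE 0.62) did not pass (limma adjusted p = 0.281). Tet1, which oxidises 5-methylcytosine, differed by -0.12 (SE 0.24, adjusted p = 0.788) and Tet2 by -0.29 (SE 0.17, adjusted p = 0.313). Tet3 differed by -1.42 (SE 0.42, adjusted p = 0.0939), but its other probes gave 0.70 and 0.32. Among genes of DNA methylation and demethylation, the stress gene Gadd45a fell by 1.16 (SE 0.19, adjusted p = 0.0195). The de novo methyltransferase gene Dnmt3b was at 4.35 and 4.02 at day 0 and at 4.14 and 4.29 at day 10, a difference of 0.04 (SE 0.35, adjusted p = 0.961), and its cofactor gene Dnmt3l differed by -0.93 (SE 0.64, adjusted p = 0.390).

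**Figure D2:**
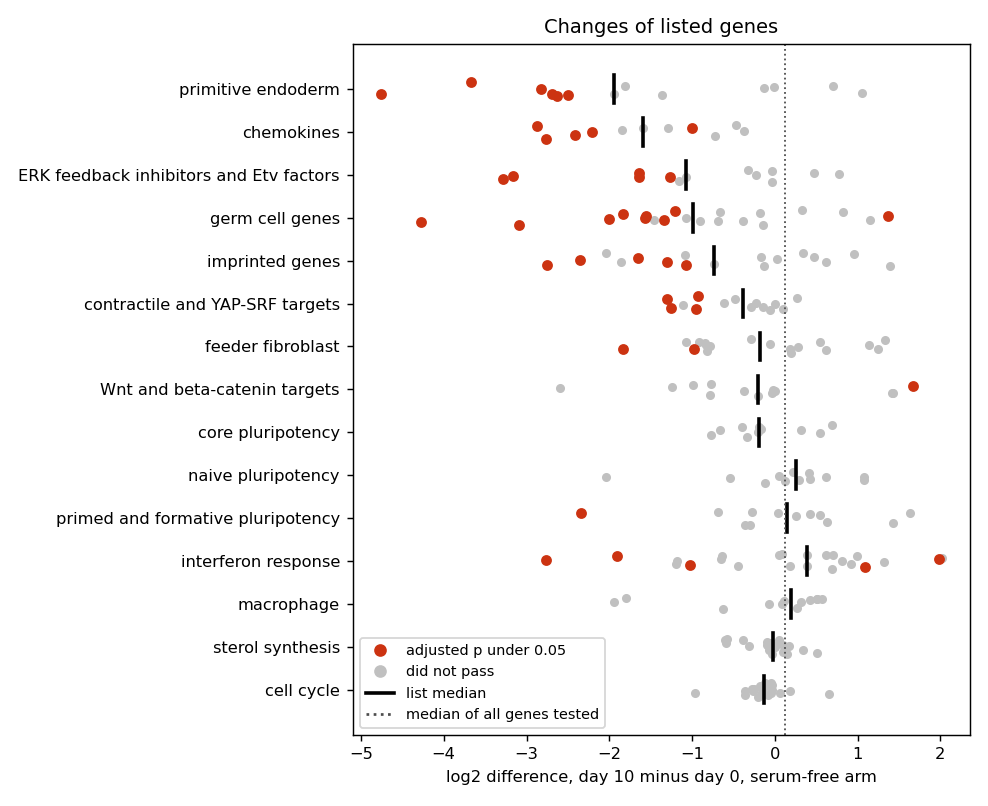
Difference between day 10 and day 0 in the serum-free arm (log2, horizontal axis) for the members of 15 gene lists, with members that passed the test in red, others in grey, each list's median as a black bar and the median of all genes tested (0.12) as a dotted line. The primitive endoderm list has the lowest median (-1.94) of those drawn, and the core pluripotency, sterol synthesis and cell cycle lists hold no red point.

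The primitive endoderm list had the lowest median of the lists. Of 13 genes tested, 6 fell, 0 rose and 7 did not pass (3.16% of all genes tested fell). The median was -1.94 (-1.18 in Stella-GFP and -2.74 in Dazl-GFP). The summed level of the 13 went from 9.33 to 2.39 in Stella-GFP and from 13.1 to 2.02 in Dazl-GFP. Most of the day 0 sum came from Cubn and Lrp2, so its drop largely restates the falls of these genes. Fewer cells of a type and less RNA per cell cannot be told apart in such bulk samples. Cubn, Lrp2, Amn and Dab2 make up the endocytic machinery of the absorbing endoderm, and all 4 fell. Cubn, the endocytic receptor cubilin, was at 1.93 and 2.32 at day 0 and at -2.78 and -2.49 at day 10. It fell by 4.76 (SE 0.93, limma adjusted p = 0.0326), the lowest change of any named gene. Lrp2, its partner megalin, was at 1.36 and 1.66 at day 0 and at -1.29 and -1.33 at day 10, a fall of 2.82 (SE 0.44, adjusted p = 0.0165), with its other probes between -2.68 and -0.62. Amn, which anchors cubilin, fell by 2.50 (SE 0.46, adjusted p = 0.0261). Dab2, the adaptor that links these receptors to clathrin, was at -0.75 and 0.42 at day 0 and at -3.79 and -3.89 at day 10. It fell by 3.68 (SE 0.45, adjusted p = 0.00972), and another probe gave -2.29 without passing.

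The regulators of this lineage were less uniform. Gata6, which starts the primitive endoderm programme, was at -2.01 and -0.19 at day 0 and at -3.71 and -3.75 at day 10, a fall of 2.63 (SE 0.45, adjusted p = 0.0212). Its other probes gave -1.70 and 0.73, so the probes disagreed. Sox7 fell by 2.70 (SE 0.29, adjusted p = 0.00782), with another probe at 0.60. Sox17, a related factor, differed by -1.81 (SE 0.47, adjusted p = 0.0736) and the receptor gene Pdgfra by -1.94 (SE 0.51, adjusted p = 0.0731). Gata4 differed by -0.01 (SE 0.36, adjusted p = 0.994), though a second probe gave -1.17 (adjusted p = 0.0372 over all probes). Hnf4a, a factor of mature visceral endoderm, differed by 1.05 (SE 0.36, adjusted p = 0.130). Of 9 basement membrane genes, which this lineage makes in quantity, Lama1 alone passed: this laminin chain was at -1.41 and -0.02 at day 0 and at -3.43 and -3.26 at day 10, a fall of 2.63 (SE 0.31, adjusted p = 0.00886). The collagen genes Col4a1 and Col4a2 differed by -1.82 (SE 0.50, adjusted p = 0.0831) and -1.79 (SE 0.54, adjusted p = 0.0998).

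Of 20 germ cell genes tested, 8 fell, 1 rose and 11 did not pass (3.16% of all genes tested fell). The median was -0.99 (-0.88 in Stella-GFP and -1.57 in Dazl-GFP). Of these 8, Piwil4, Piwil2, Mov10l1, Ddx4, Mael and Tdrd1 belong to the piRNA pathway, which silences transposons in the male germ line. The promoters of several germ cell genes carry an E-box (CACGTG), a motif bound by MAX-containing complexes that are known to repress such genes in ES cells. To show where it lies, the promoter windows of 3 of the genes that fell follow, each running from 250 bases before the annotated start of the RefSeq gene to 50 after it, read 5′ to 3′ on the strand of the gene, in GRCm38.p6, with the E-box in capitals. They are Ddx4 at chr13:112652261-112652560 (minus strand), Mael at chr1:166238695-166238994 (minus strand) and Mov10l1 at chr15:88982744-88983043 (plus strand).
Ddx4: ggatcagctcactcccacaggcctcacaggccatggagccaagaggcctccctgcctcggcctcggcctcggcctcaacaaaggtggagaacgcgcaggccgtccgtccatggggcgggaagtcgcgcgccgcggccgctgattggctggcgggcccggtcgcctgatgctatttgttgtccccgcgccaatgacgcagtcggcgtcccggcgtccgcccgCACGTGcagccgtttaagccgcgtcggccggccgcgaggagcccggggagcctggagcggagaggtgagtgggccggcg
Mael: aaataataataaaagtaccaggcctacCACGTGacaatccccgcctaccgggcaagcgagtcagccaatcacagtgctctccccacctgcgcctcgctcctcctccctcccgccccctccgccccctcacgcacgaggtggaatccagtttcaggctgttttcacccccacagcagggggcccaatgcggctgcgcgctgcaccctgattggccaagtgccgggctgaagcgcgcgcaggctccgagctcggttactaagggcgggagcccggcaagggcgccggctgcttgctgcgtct
Mov10l1: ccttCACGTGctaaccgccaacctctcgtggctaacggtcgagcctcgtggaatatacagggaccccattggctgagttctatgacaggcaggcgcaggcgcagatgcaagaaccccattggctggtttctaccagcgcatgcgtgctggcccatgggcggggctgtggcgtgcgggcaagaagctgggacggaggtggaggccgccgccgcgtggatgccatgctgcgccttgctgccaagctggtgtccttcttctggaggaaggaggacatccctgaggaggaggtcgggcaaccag

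The E-box, whose letters read the same on both strands, lies shortly before the start in Ddx4 and near the far end of the window in Mael and Mov10l1. A window was at hand for 7 of the 8 germ cell genes that fell, and 5 of these 7 held an E-box (Ddx4, Mael, Mov10l1, Tdrd1 and Taf7l), against 5 of 9 among the other germ cell genes tested. Counted by gene, 10.7% of the 13244 tested genes with a window held the motif in at least 1 of their windows, and 10.2% of the 480 that fell did. Counted by window, a share not comparable with those, it was in 7.15% of all 32851 windows. It thus occurred in germ cell genes that fell and in those that did not, and these letters are a description of the windows only.

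Piwil4, the PIWI protein that directs piRNA silencing to the nucleus, was at -1.86 and -1.68 at day 0 and at -6.55 and -5.53 at day 10, not well above background on either day 10 array. It was at least 14.4-fold lower at day 10 (limma adjusted p = 0.00513). Such bounds set the mean of the measured group against the other group, each of whose arrays is taken at no less than its lowest signal well above background. Stra8, a retinoic acid target needed for entry into meiosis, was at 0.48 and 0.33 at day 0 and at -1.63 and -3.74 at day 10, a fall of 3.10 (SE 0.53, adjusted p = 0.0217). Piwil2, which makes primary piRNAs, fell by 2.00 (SE 0.20, adjusted p = 0.00652) and Mov10l1, the helicase that feeds precursors into the pathway, by 1.84 (SE 0.18, adjusted p = 0.00618), measured above background on 1 of the 2 day 10 arrays. Ddx4, the Vasa helicase, was at 2.18 and 2.08 at day 0 and at 0.68 and 0.46 at day 10, a fall of 1.56 (SE 0.16, adjusted p = 0.00740).

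Taf7l, Mael and Tdrd1 fell in the same range: Taf7l, a germ cell variant of a TFIID subunit, by 1.56 (SE 0.34, adjusted p = 0.0459), Mael, a piRNA factor, by 1.34 (SE 0.30, adjusted p = 0.0470), and Tdrd1, a Tudor scaffold protein of the pathway, by 1.21 (SE 0.17, adjusted p = 0.0135, with another probe at -0.50). Kit, the receptor that germ cells need for survival and that ES cells also express, was the member that rose, from -0.43 and -0.32 to 0.57 and 1.41 (1.36, SE 0.21, adjusted p = 0.0165). The meiotic chromosome genes Sycp1 and Sycp3 differed by -1.45 (SE 0.46) and -1.07 (SE 0.37) and did not pass.

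The highest rise was that of Cyp1a1, a cytochrome P450 and the standard target of the aryl hydrocarbon receptor. It was at -6.64 and -7.55 at day 0, not well above background on either array, and at -1.38 and -0.62 at day 10. It was at least 29.0-fold higher at day 10 (limma adjusted p = 0.00886), and both lines had reached -1.07 and 0.06 by day 3. Its promoter window, given because the receptor binds DNA through the core letters GCGTG, lies at chr9:57697363-57697662 (plus strand, GRCm38.p6, from RefSeq) and holds 1 copy, counted on both strands and in capitals.
Cyp1a1: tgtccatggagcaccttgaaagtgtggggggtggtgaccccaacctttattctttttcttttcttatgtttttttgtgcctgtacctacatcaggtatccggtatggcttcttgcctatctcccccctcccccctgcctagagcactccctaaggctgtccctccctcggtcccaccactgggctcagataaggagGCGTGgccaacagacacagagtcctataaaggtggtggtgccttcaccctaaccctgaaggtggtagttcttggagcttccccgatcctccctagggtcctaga

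The same letters occurred on either strand in 32.4% of all windows, so 1 copy is common. Of 7 targets of this receptor tested, Cyp1a1 alone passed, and the median was 0.72 against 0.12 over all genes tested. All 7 were higher at day 10 in both lines. The share of all genes that were so was not counted, and the changes of the lines correlated over all genes (r = 0.572). The count is thus no result about the receptor. Ahrr, the repressor induced by the receptor, differed by 0.75 (SE 0.18, adjusted p = 0.0539), and Nqo1, a quinone reductase, by 0.72 (SE 0.24, adjusted p = 0.120). Tiparp, which modifies the receptor, differed by 0.68 (SE 0.24, adjusted p = 0.140), and Cyp1b1, a P450 of the same family, by 0.47 (SE 0.39, adjusted p = 0.477).

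Several of the other highest rises started below background. Trpm1, a cation channel of retinal and pigment cells, was higher at least 6.86-fold (adjusted p = 0.00513), with another probe at 0.87 that did not pass. Gsx2, a homeobox gene of the ventral forebrain, was higher at least 7.78-fold (adjusted p = 0.00479), and Gpld1, which cleaves glycosylphosphatidylinositol anchors, at least 6.04-fold (adjusted p = 0.00998). Hnmt, the enzyme that inactivates histamine by methylation, went from -5.63 and -6.92, not well above background, to -2.18 and -1.90, at least 13.9-fold higher (adjusted p = 0.0117). Adh1, an alcohol dehydrogenase, was at least 2.99-fold higher (adjusted p = 0.0120), Akap6, an anchor of protein kinase A, at least 3.65-fold (adjusted p = 0.0194), and Cd3d, a T cell receptor subunit, at least 1.67-fold (adjusted p = 0.0158).

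Other genes rose from a measured level. Ifi27, an interferon-inducible mitochondrial protein gene, was at 0.17 and 0.06 at day 0 and at 4.02 and 3.63 at day 10, a rise of 3.71 (SE 0.52, limma adjusted p = 0.0129). Rasgef1a, an exchange factor for small GTPases, rose by 3.50 (SE 0.42), Cdhr1, a cadherin of photoreceptors, by 3.16 (SE 0.37), and Lrrn2, a leucine-rich repeat neuronal gene, by 3.10 (SE 0.37, with another probe at 1.17). Cadps2, which primes dense-core vesicles for release, rose by 3.04 (SE 0.36), Vax2, a homeobox gene of the ventral retina, by 2.89 (SE 0.21), and Ccno, a cyclin family gene known from multiciliated cells, by 2.91 (SE 0.55). Adjusted p was 0.00479 for Vax2, 0.0293 for Ccno and 0.00886 to 0.00898 for the other 4. Of 11 neuroectoderm markers tested 0 passed in limma (5 at an unadjusted p under 0.05), among them Pax6 at 2.15 (SE 0.87, adjusted p = 0.171), and their summed level was 11.4 and 10.5 at day 0 against 10.2 and 9.73 at day 10.

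The lowest changes next to those of Cubn, Piwil4 and Dab2 were in genes of varied roles. Tmem54, a membrane protein gene, was at 0.88 and -0.01 at day 0 and at -3.21 and -4.06 at day 10, a fall of 4.07 (SE 0.30, limma adjusted p = 0.00479). Plac8, named for its placental expression, went from 2.18 and 2.19 to -1.31 and -2.04, a fall of 3.86 (SE 0.48, adjusted p = 0.00998). Olr1, the receptor for oxidised low density lipoprotein, was at least 4.25-fold lower (adjusted p = 0.00527), Tcf23, a basic helix-loop-helix gene, at least 9.33-fold (adjusted p = 0.00513), and Lad1, a filament protein of basement membranes, at least 10.1-fold (adjusted p = 0.0117). Another Tcf23 probe gave -0.58 without passing, so the Tcf23 probes disagreed. Mpp3, a scaffold of cell junctions, was at least 9.48-fold lower (adjusted p = 0.00527), Tmprss5, a membrane serine protease, at least 4.83-fold (adjusted p = 0.0148), Nostrin, a regulator of nitric oxide synthase traffic, at least 3.12-fold (adjusted p = 0.0480), and Fam110c at least 2.20-fold (adjusted p = 0.0490). Mal2, which sorts proteins to the apical membrane, fell by 3.61 (SE 0.45, above background on 1 day 10 array), Calml4, a calmodulin-like gene, by 3.38 (SE 0.23), and Hkdc1, a hexokinase-like gene, by 3.31 (SE 0.46).

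Part of the chemokines, the secreted proteins that attract leukocytes, were lower at day 10. Of 11 tested, 5 fell, 0 rose and 6 did not pass (3.16% of all genes tested fell), and the median was -1.59. Ccl2, the monocyte attractant, was at 3.11 and 2.66 at day 0 and at 0.72 and -0.69 at day 10, a fall of 2.87 (SE 0.43, limma adjusted p = 0.0158). Cxcl10, which interferon induces, fell by 2.76 (SE 0.56, adjusted p = 0.0374), Ccl20 by 2.42 (SE 0.42, adjusted p = 0.0215, above background on 1 day 10 array) and Ccl5 by 1.00 (SE 0.23, adjusted p = 0.0499). Cx3cl1, the membrane-bound chemokine, fell by 2.21 (SE 0.27, adjusted p = 0.00943), while another probe gave 1.78 without passing. Feeder cells can be a source of these RNAs. The summed fibroblast level over the same arrays went from 53.1 to 56.4 and from 47.8 to 43.2, and the part of feeders in these falls was not tested.

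Among 18 fibroblast markers 2 fell, the calcium-binding protein gene S100a4 by 1.84 (SE 0.31, adjusted p = 0.0204) and the mesenchymal factor gene Twist2 by 0.97 (SE 0.22, adjusted p = 0.0472). The list's median was -0.18. The counts of this paragraph are to be read beside the 3.16% of all genes tested that fell. S100a4 was at 2.51 and 2.33 at day 0, at -0.90 and -1.48 at day 3 and at 1.32 and -0.16 at day 10, and its other probe gave -0.02. Of 14 contractile genes, 4 fell: the actin-binding genes Tagln by 1.26 (SE 0.27, adjusted p = 0.0442) and Cnn1 by 0.95 (SE 0.17, adjusted p = 0.0263), the myosin light chain gene Myl9 by 1.31 (SE 0.29, adjusted p = 0.0455) and Ankrd1, a target of YAP, by 0.93 (SE 0.16, adjusted p = 0.0232). The probes of the actin gene Acta2 disagreed. The probe used gave -0.05, and others gave 0.29, -1.24 and -1.67 (limma adjusted p = 0.663, 0.0384 and 0.0451 over all probes). Mmp9, a matrix protease, was at least 2.25-fold lower (adjusted p = 0.0159), the 1 of 10 metalloproteinase genes and inhibitors that passed. Mmp3 differed by -3.23 (SE 1.05, adjusted p = 0.115). Of 12 macrophage markers 0 passed (2 at an unadjusted p under 0.05), with the lysozyme gene Lyz2 at -1.80 (SE 0.76, limma adjusted p = 0.185), and 0 of 11 collagen genes other than type IV (1 unadjusted).

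Interferon-inducible genes split. Of 23 tested, 18 did not pass (5.36% of all genes tested passed), and the median was 0.39. Among those that rose, Oas1a, a sensor of double-stranded RNA, was at -0.64 and -0.03 at day 0 and at 1.94 and 1.36 at day 10, a rise of 1.99 (SE 0.38, limma adjusted p = 0.0311). Falls were seen for the immunoproteasome gene Psmb9 by 1.91 (SE 0.29, adjusted p = 0.0158), for the GTPase gene Gbp2 by 1.02 (SE 0.19, adjusted p = 0.0298) and for Cxcl10. Outside the list, and singled out after their values were seen, the Oas genes Oas1d, Oas1f and Oas3 rose by 2.08 (SE 0.26, adjusted p = 0.00972), 2.07 (SE 0.42, adjusted p = 0.0370) and 2.17 (SE 0.39, adjusted p = 0.0237). Oas1a, Oas1d and Oas1f are close copies whose probes may share signal, and another Oas3 probe gave -0.65. Isg15 and Ifit1, broad readouts of interferon, differed by 0.39 (SE 0.48) and 0.05 (SE 0.65) and did not pass.

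Imprinted genes, of which 1 parental copy is silenced by DNA methylation, fell in 5 of 17 (3.16% of all genes tested fell). There were 0 rises, and the median was -0.74. Phlda2, a brake on placental growth, was at 3.14 and 3.53 at day 0 and at 0.68 and 0.48 at day 10, a fall of 2.75 (SE 0.26, limma adjusted p = 0.00553). Dlk1, a Notch ligand relative, fell by 2.35 (SE 0.30, adjusted p = 0.0110, with another probe at -1.08), Grb10, an adaptor that restrains insulin signalling, by 1.65 (SE 0.18, adjusted p = 0.00782), the cell cycle inhibitor gene Cdkn1c by 1.30 (SE 0.26, adjusted p = 0.0350) and Snrpn by 1.07 (SE 0.19, adjusted p = 0.0228). The members that fell include genes expressed from the maternal copy (Phlda2, Cdkn1c) and from the paternal copy (Dlk1, Snrpn). H19, a maternally expressed noncoding RNA, differed by 1.39 (SE 0.35, adjusted p = 0.0648).

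Single members of other lists passed, as 5.36% of all genes tested did. The counts here and in the next paragraph are to be read beside that share, and 1 call in a list is no result about the list. Socs3, the feedback inhibitor of LIF signalling, was at 3.30 and 3.37 at day 0 and at 2.06 and 2.04 at day 10, a fall of 1.29 (SE 0.15, limma adjusted p = 0.00842), 1 of 12 LIF and STAT3 genes. Smad7, the feedback inhibitor of TGFβ and BMP signals, fell by 1.29 (SE 0.15, adjusted p = 0.00872), the 1 gene that passed among 11 BMP and Id genes and also among 9 Nodal pathway genes. Of 19 genes of the integrated stress response, the pseudokinase gene Trib3 fell by 1.80 (SE 0.24, adjusted p = 0.0120) and Cebpb by 1.65 (SE 0.33, adjusted p = 0.0357). Socs3, Smad7, Trib3 and Cebpb were each lower on both day 10 arrays than on both day 0 arrays. They were named because they passed on these arrays, so this adds no support.

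Of 13 retinoid response genes, the carrier gene Crabp2 rose by 1.31 (SE 0.20, adjusted p = 0.0154), from a level above background on 1 day 0 array, and its relative Crabp1 fell by 1.02 (SE 0.22, adjusted p = 0.0421), beside Stra8. Of 14 p53 targets, the cell cycle inhibitor gene Cdkn1a rose by 1.24 (SE 0.27, adjusted p = 0.0429), and the death genes Perp and Pmaip1 fell by 1.23 (SE 0.25) and 1.16 (SE 0.25). Of 18 glycolysis and hypoxia genes, the phosphofructokinase gene Pfkp rose by 1.53 (SE 0.29, adjusted p = 0.0305) and the angiogenic factor gene Vegfa fell by 1.18 (SE 0.27, adjusted p = 0.0499).

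Several programmes gave no call in limma. They were sterol synthesis (0 of 20, 4 at an unadjusted p under 0.05), fatty acid synthesis (0 of 10, 2 unadjusted), the cell cycle (0 of 20, 2 unadjusted) and the respiratory chain (0 of 16, 0 unadjusted). The same held for aminoacyl-tRNA synthetases (0 of 12, 0 unadjusted), amino acid transporters (0 of 10, 1 unadjusted) and antioxidant genes (0 of 12, 3 unadjusted). The medians of these 7 lists lay between -0.17 (antioxidant) and 0.13 (fatty acid synthesis). Mesendoderm (0 of 9, 1 unadjusted), trophoblast (0 of 10, 3 unadjusted) and 2-cell stage genes (0 of 5, 0 unadjusted) gave none either. Over all genes tested 5.36% passed and 5430 of 20790 had an unadjusted p under 0.05, so lists this short can hold 0 calls at that share. In the respiratory chain, other probes of Sdha and Atp5a1 rose by 1.66 and 1.15 (limma adjusted p = 0.00780 and 0.0172 over all probes). The probes used gave 0.04 and -0.19.

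The day 3 arrays lie between these days. Between day 10 and day 3 limma called 483 genes (2.32%), 261 higher and 222 lower at day 10, and the day 10 arrays are the same as in the comparison with day 0. The count was 0 without either serum-free day 3 array and 4 without the Dazl-GFP day 10 array, 50 without a serum-free day 0 array, 132 to 134 without an FBS day 3 array or the Stella-GFP day 10 array, 290 without an FBS day 10 array and 759 without an FBS day 0 array. After quantile normalization 39.7% of the calls were higher, against 54.0%. The share of higher and lower calls therefore depends on the scaling.

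**Figure D3:**
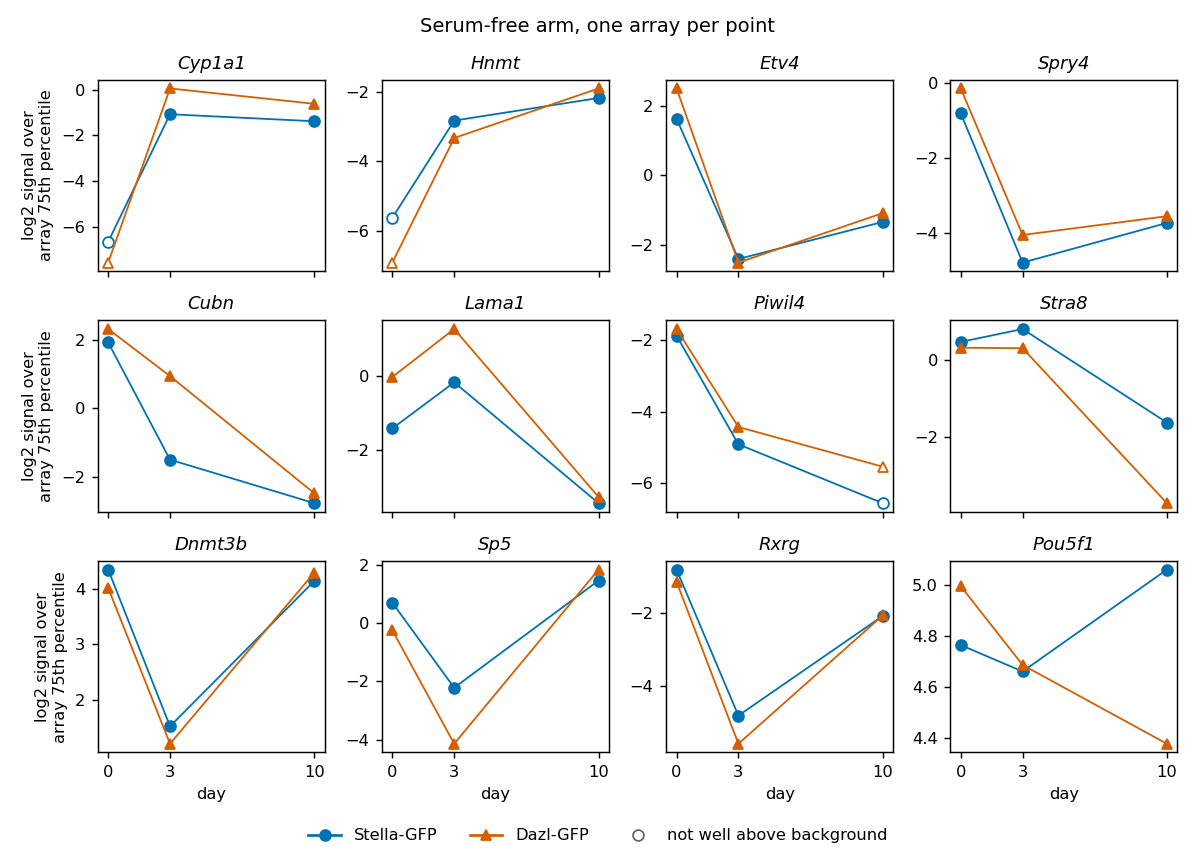
Levels at days 0, 3 and 10 of the serum-free arm (log2 signal relative to the array's 75th percentile, vertical axis, a scale of its own in each panel) for 12 genes, 1 array per point, Stella-GFP as circles and Dazl-GFP as triangles, open where not well above background. Cyp1a1, Etv4 and Spry4 had moved by day 3, Lama1 and Stra8 were lower at day 10 than at day 3, and Dnmt3b, Sp5 and Rxrg were low at day 3 and higher again at day 10.

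One set of genes had a day 3 level that the comparison of day 10 with day 0 does not show. Dnmt3b was at 4.35 and 4.02 at day 0, at 1.52 and 1.21 at day 3 and at 4.14 and 4.29 at day 10, higher at day 10 than at day 3 by 2.85 (limma adjusted p = 0.0236). Sp5, a direct target of β-catenin, was at 0.70 and -0.24, then at -2.21 and -4.14, then at 1.46 and 1.84, higher by 4.82 (adjusted p = 0.0198). Lef1, the DNA-binding partner of β-catenin, was higher at day 10 than at day 3 by 3.87 (adjusted p = 0.0384). The epiblast genes Fgf5 and Pou3f1 were higher by 2.40 (adjusted p = 0.0256) and 2.84 (adjusted p = 0.0256). All of Dnmt3b, Lef1, Sp5, Fgf5 and Pou3f1 were lowest at day 3 in both lines. They were named because day 10 passed over day 3, so a day 3 level below day 10 adds no support. Of 12 primed and formative genes 5 were higher at day 10 than at day 3, and of 13 Wnt targets 4, with 0 lower in either list. Among all genes tested 1.26% were higher, a share that also belongs beside the fibroblast count that follows. The fibroblast sums were lowest at day 3 too, at 35.8 in Stella-GFP and 30.2 in Dazl-GFP, and 5 of 18 fibroblast markers were higher at day 10 than at day 3. Their part in these courses was not tested.

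Other genes were lower at day 10 than at day 3. Stra8 was at 0.82 and 0.32 at day 3 against -1.63 and -3.74 at day 10, lower by -3.26 (limma adjusted p = 0.0353). Lama1 was at -0.17 and 1.27 at day 3, above its day 0 level in both lines, and was lower at day 10 by -3.90 (adjusted p = 0.0198). Gata6, Sox7 and Sox17 were lower at day 10 than at day 3 by -3.02 (adjusted p = 0.0288), -2.26 (adjusted p = 0.0255) and -2.68 (adjusted p = 0.0401). Sox7 already stood lower at day 3 than at day 0 in Dazl-GFP, at -1.96 against -1.02, and level in Stella-GFP, at -1.99 against -2.04. The collagen IV genes Col4a1 and Col4a2 were lower by -3.34 (adjusted p = 0.0300) and -3.23 (adjusted p = 0.0358); like Sox17 they did not pass between day 10 and day 0. By day 3 Lrp2 had fallen by 2.42 (adjusted p = 0.0156). Cubn differed by -2.41 at day 3 without passing (adjusted p = 0.126), from 1.93 to -1.51 in Stella-GFP and from 2.32 to 0.94 in Dazl-GFP. Hkdc1 was at -1.92 and -0.55, then at -0.43 and 0.71, then at -4.44 and -4.65, lower at day 10 by -4.69 (adjusted p = 0.0198). Gpld1, Lrrn2, Ccno and Trpm1 were higher at day 10 than at day 3, by 3.63, 2.39, 3.23 and 1.95 (adjusted p = 0.0318, 0.0309, 0.0362 and 0.0485).

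The FBS arm has its own day 0 and day 10 arrays, so the day 10 change could be tested for a difference between arms. The difference of the changes passed for 15 genes (0.0722%), 5 with a higher (0.0241%) and 10 with a lower value (0.0481%) in the serum-free arm, while 4075 had an unadjusted p under 0.05. The count ran from 0 to 48 as single arrays were left out: it was 0 without either serum-free day 3 array, the Stella-GFP serum-free day 0, the Dazl-GFP serum-free day 10 or the Dazl-GFP FBS day 10 array, 1 to 8 without any other array but one, and 48 without the Dazl-GFP FBS day 0 array. After quantile normalization 17.9% of the calls were higher, against 33.3%. In the FBS arm 2687 genes (12.9%) passed between day 10 and day 0. Across all genes tested the changes of the 2 arms correlated at r = 0.388, again a description over genes.

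As3mt, Hrh1 and Catsperz passed both in the serum-free arm and for the difference, and were singled out after their values were seen. Hrh1, a histamine receptor, was at -2.14 and -1.51 at day 0 and at -4.44 and -4.42 at day 10, a fall of 2.60 (SE 0.20, limma adjusted p = 0.00479), against -0.01 in the FBS arm (difference adjusted p = 0.0446). As3mt, which methylates arsenic, was at 0.42 and 0.86 at day 0 and at -1.33 and -0.64 at day 10, a fall of 1.62 (SE 0.14, adjusted p = 0.00513), against 0.21 (difference adjusted p = 0.0446). Catsperz, a subunit of the sperm calcium channel, fell by 0.78 (SE 0.16, adjusted p = 0.0358), against 1.31 (difference adjusted p = 0.0446).

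In limma 0 members of the ERK, primitive endoderm, germ cell and chemokine lists passed for the difference of the arms. Their unadjusted p was under 0.05 for 7 of 13, 5 of 13, 5 of 20 and 6 of 11. The core, naive and primed pluripotency lists gave 0 too, with 3 of 10, 7 of 12 and 7 of 12 unadjusted. Of all 20790 genes tested, 4075 had such an unadjusted p, and no list was tested against this share. Etv4 changed by -3.28 in the serum-free and -3.63 in the FBS arm (difference 0.35, SE 0.37, adjusted p = 0.650), and Cyp1a1 by 6.10 and 5.10 (difference 1.00, SE 1.01, adjusted p = 0.633). Dnmt3b changed by 0.04 and -3.24 (difference 3.28, SE 0.50, adjusted p = 0.0611), Fgf5 by -0.30 and -3.67 (difference 3.37, SE 0.45, adjusted p = 0.0611) and Dnmt3a by -0.36 and -2.69 (difference 2.33, SE 0.41, adjusted p = 0.0677). Lama1 changed by -2.63 and 0.42 (difference -3.05, SE 0.44, adjusted p = 0.0611), Stra8 by -3.10 and -0.37 (difference -2.73, SE 0.76, adjusted p = 0.159), and Ccl2 by -2.87 and -3.00 (difference 0.13, SE 0.61, adjusted p = 0.931). None of these differences passed, which does not show that the arms changed alike. Dazl changed by 1.15 and 2.52 (difference -1.37, SE 0.88, adjusted p = 0.430).

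**Figure D4:**
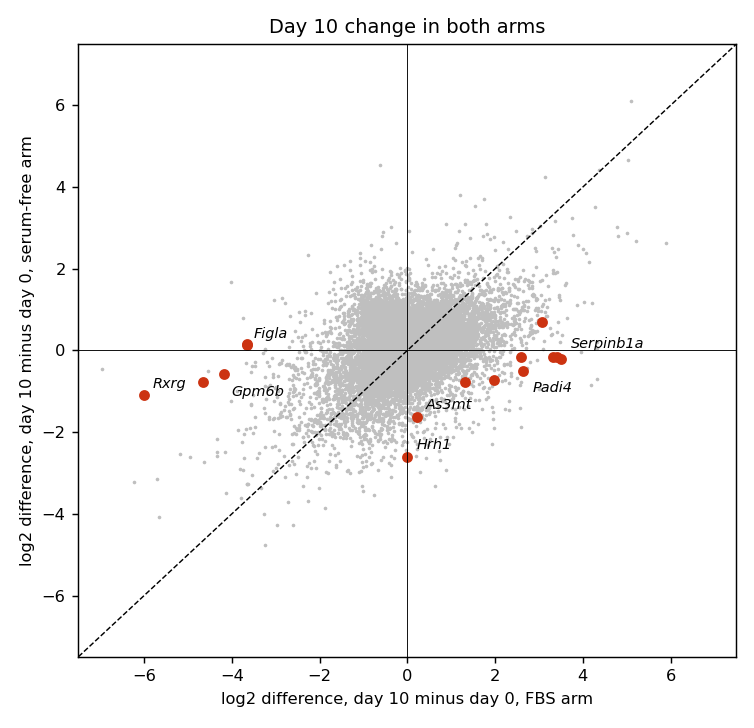
Change from day 0 to day 10 in the FBS arm (horizontal axis) against that in the serum-free arm (vertical axis), both log2 differences, for the 20790 genes tested, with the 15 genes whose difference passed in red, 7 of them named, and the line of equal change dashed. Hrh1 and As3mt lie below 0 in the serum-free arm near 0 in the FBS arm, whereas Rxrg, Gpm6b and Serpinb1a changed mainly in the FBS arm.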

How the data were processed

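RNA of 12 samples was hybridised to one-colour Agilent arrays of 45018 spots, 43379 of them not controls. The spot intensities that the authors deposited came from Feature Extraction 9.1.3.1, with a fitted background subtracted and multiplicative detrending, per the file headers. The series table deposited by the authors holds a ratio, the intensity of a spot after background subtraction over its array's median, as its values show. This scale was matched for 41529 spots within a relative tolerance of 0.01, and no processing is named for the table.

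Log2 intensity minus each array's 75th percentile was averaged per probe, without non-uniform spots. Of 41174 probes, 22951 were named by the RefSeq table (GRCm38.p6), 7527 by the authors' table and 10696 by the file. Each gene was represented by its brightest probe on average, and 20790 of 26897 genes, above background on at least 2 arrays, were tested. For 14 genes an array value was missing and was left out of the fit.

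Groups and line were fitted to all 12 arrays with limma 3.58.1 in R 4.3.3 (5 residual and 2.53 prior degrees of freedom), so groups share 1 spread, adjusted by Benjamini and Hochberg at 0.05. The code was tested on simulated data. Replicate numbers are cell lines, which pairs the arrays. Line differences correlated across genes at -0.047 to 0.573 over 15 pairs of groups, above 0.1 in 13, and at 0.128 between serum-free days 0 and 10. Precision is limited by how few arrays there are.

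The members and gene lists were chosen with earlier results of these data known, and no list carries a test of its own. Genes named are the 15 highest and 15 lowest changes that passed with the same sign in both lines, without clone or predicted names, from 2 to 6 genes of a described list, and always the TET genes, Nanog, Pou5f1, Dppa3 and Dazl. Further members are named where a list's text turns on them, and some genes are not reported here. Alternatives covered the background correction, scaling, filter, probe choice, line and slide blocks, variance trend, arrays fitted, and each array left out.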

Additional observations from a re-analysis of the deposited data

Results flagged for a closer look

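The day 10 change differed between the serum-free and the FBS arm for 15 genes by the limma contrast of the changes (adjusted p under 0.05). Values are the serum-free minus the FBS change on the log2 scale. In 3 genes the serum-free arm had changed: Hrh1 (-2.60), As3mt (-1.83) and Catsperz (-2.09). For the others the serum-free change did not pass and the FBS change did. Rxrg, a retinoid X receptor, stood at 4.92, with -1.10 in the serum-free and -6.02 in the FBS arm. Its serum-free levels were -0.80 and -1.13 at day 0, -4.80 and -5.58 at day 3 and -2.07 and -2.05 at day 10. Wnt8a, a Wnt ligand gene, stood at 3.80, Gpm6b, a neuronal membrane protein gene, at 3.60, and Figla, an oocyte transcription factor gene, at 3.80. Figla was not well above background on any of the 4 serum-free arrays compared.

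Lower in the serum-free arm were the serpins Serpinb1a (-3.71) and Serpinb1c (-3.48), which are close copies whose probes may share signal, the homeobox gene Pitx1 (-3.57), Padi4, which converts arginine to citrulline (-3.13), S100a13 (-2.75) and Qpct, which cyclises N-terminal glutamine (-2.37). Of these, Padi4 and Serpinb1a changed by -0.49 and -0.20 in the serum-free arm and by 2.64 and 3.51 in the FBS arm. The other 2 of the 15 carry a predicted name or a probe name only. No slide holds both days of both arms for a line, and 0 of these differences passed in limma once the slide was a block (3384 genes at an unadjusted p under 0.05).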

How the results depend on the processing

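For serum-free day 10 versus day 0, limma called 1114 genes. It called 0 with normexp background correction (1272 at an unadjusted p under 0.05), where 10 spots of the Dazl-GFP FBS day 0 array had local backgrounds over 10 times their array's median, and 1289 once these were repaired, an alternative added after the data were seen. It called 731 with no filter, 584 with no replicate block (the lines left unpaired), 40 with the slide as a block and 0 with only the arrays compared (5106 unadjusted), and 0 to 1421 as each array was left out. Quantile normalization (1148), the authors' table (1166), all probes (1354), only genes above background on all arrays (1372) and a variance trend (1486) stayed within 1.5 times.

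For serum-free day 10 versus day 3 the 483 calls became 0 with normexp (1173 unadjusted), 1116 after the repair, 231 with no filter, 949 with genes above background on all arrays, 119 with no replicate block, 0 with the slide block (3857 unadjusted), 1257 with a variance trend, 0 with only the arrays compared (4963 unadjusted), and 0 to 759 as each array was left out.

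For the day 10 change, serum-free minus FBS, the 15 calls became 0 with normexp (1421 unadjusted), where the median of all genes moved from 0.07 to 0.47, 329 after the repair, 67 with quantile normalization, 36 in the authors' table, 5 with no filter, 260 with genes above background on all arrays, 7 with all probes, 1 with no replicate block, 0 with the slide block (3384 unadjusted), 269 with a variance trend, 0 with only the arrays compared (3621 unadjusted), and 0 to 48 as each array was left out. Beyond fewer arrays or another set of genes, the causes were not tested.

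Of the same 87 named genes, none reversed under any alternative. Several alternatives leave the fitted change of a gene measured on all arrays as it was, so they could not reverse it. They are no line block, only the arrays compared, the variance trend, no filter, all probes, and an FBS or day 3 array left out. With only genes above background on all arrays, 62 of the 87 were tested. All 87 passed with quantile normalization and 86 in the authors' table, 65 passed with no filter, and 0 without the Dazl-GFP serum-free day 0 array. With 1 array per line and day, a lone array was assumed to vary like the other groups. Dim probes limit the folds given as bounds.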
